A study of Mus musculus with 18 samples.

Results

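Of the 11320 genes that untreated bone marrow-derived macrophages (BMDMs) of both strains expressed at a mean of 2 CPM (counts scaled to a sample total of 1000000) or more, 230 fell to 0.5 or less of that level after apoptotic cells (AC) in B6 and in SjSS BMDMs alike. They are 2.03% of those genes, out of 20615 genes in the table. They were chosen by the AC and control values themselves: the counts of each sample were divided by the sample total, the 3 samples of a group were averaged, 0.1 CPM was added, and the ratio of AC to control had to be 0.5 or less in both strains. Their fall with AC is therefore given as a description, with no test. Their response to CpG shares its control samples with that choice, and only the comparison of the 2 strains under CpG rests on samples that the choice did not use.

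The 18 samples were BMDMs of female mice aged 7 to 12 weeks, 3 samples in each of 6 groups. B6 is C57BL/6, and SjSS is C57BL/6.NOD-Aec1Aec2, a strain that develops a disease like Sjögren's syndrome and carries the Aec1 and Aec2 intervals from NOD mice, on chromosomes 3 and 1, in otherwise B6 DNA. Marrow cells of both strains were grown for 7 days with L929 supernatant as the source of M-CSF, and then left untreated (control), given dexamethasone-killed thymocytes at 5 per BMDM for 2 h and washed (AC), or given the oligonucleotide CpG at 1 µM for 6 h. The AC samples had a further 3 h in culture after the wash by the sample labels. The controls had no mock addition of cells or inactive oligonucleotide, the cells were grown in a dish and not taken from a tissue, and which strain's thymocytes a sample received was not given in the sources used here. The totals per sample ran from 30688336 to 57139662 estimated counts. The 15 macrophage markers in the table had counts in every group and summed to 21550 to 27830 CPM per sample.

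Clearance of apoptotic cells by macrophages, called efferocytosis, starts with chemoattractant receptors that guide the cell to its target, goes on with surface receptors that bind phosphatidylserine, and ends with a load of lipid, sterol and nucleotides from the digested cell. Macrophages sense a rise in membrane cholesterol through the SREBP system, which then lowers transcription of the genes for sterol synthesis. CpG oligonucleotides are ligands of the endosomal receptor TLR9.

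The promoters of 4 genes of sterol synthesis are shown first, because these genes fell with AC but rose with CpG in B6, where most of the 230 fell. Each is the 250 bases before the start of the gene in RefSeq, build GRCm38.p6, read 5′ to 3′ on the strand of the gene. Capitals mark CCAAT on either strand, the box bound by NF-Y, and TCACNNCAC on either strand, a spelling of the sterol regulatory element bound by SREBP that was added after the data were seen. The windows lie at chr13:119690101-119690350 (plus strand), chr5:4104698-4104947, chr8:64733579-64733828 and chr8:122443423-122443672 (minus strand).
Hmgcs1: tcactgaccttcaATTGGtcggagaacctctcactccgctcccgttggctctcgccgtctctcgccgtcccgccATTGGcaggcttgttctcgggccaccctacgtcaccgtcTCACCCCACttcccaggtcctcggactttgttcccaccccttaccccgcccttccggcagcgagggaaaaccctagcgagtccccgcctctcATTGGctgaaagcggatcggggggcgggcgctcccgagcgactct
Cyp51: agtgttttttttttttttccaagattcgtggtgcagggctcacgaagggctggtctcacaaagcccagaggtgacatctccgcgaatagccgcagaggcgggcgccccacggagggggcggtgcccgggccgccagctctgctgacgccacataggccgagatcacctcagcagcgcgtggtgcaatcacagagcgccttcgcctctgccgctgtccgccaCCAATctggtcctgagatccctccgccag
Msmo1: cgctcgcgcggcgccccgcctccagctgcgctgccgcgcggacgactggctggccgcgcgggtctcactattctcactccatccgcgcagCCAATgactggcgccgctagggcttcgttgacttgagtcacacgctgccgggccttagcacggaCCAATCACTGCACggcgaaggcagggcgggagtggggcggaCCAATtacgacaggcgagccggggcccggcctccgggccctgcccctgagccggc
Mvd: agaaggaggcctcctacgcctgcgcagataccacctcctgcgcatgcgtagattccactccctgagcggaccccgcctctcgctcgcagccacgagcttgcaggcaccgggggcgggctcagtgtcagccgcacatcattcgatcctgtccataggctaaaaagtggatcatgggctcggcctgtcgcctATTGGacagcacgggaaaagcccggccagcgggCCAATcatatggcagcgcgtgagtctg
The Hmgcs1 window holds 3 CCAAT boxes and 1 sterol element, and the Msmo1 window holds 3 and 1. In Msmo1 the middle box and the element overlap. The Mvd window holds 2 CCAAT boxes and the Cyp51 window 1, with TCACNNCAC in neither. Over all RefSeq promoter windows of 300 bases (250 before to 50 after the start), 41.1% of 27025 genes had CCAAT and 4.37% had TCACNNCAC. Among the 230, 6 sterol genes had such windows, and the 4 shown are a choice among them. All 6 had CCAAT and 3 had TCACNNCAC. Dhcr7, which is not shown and was lower with CpG, had both motifs, in separate windows. These are matches of letters and not measured binding. A window was found for 171 of the 230 genes (74.3%, 4 of them through an older symbol), which is under the 80% needed for a comparison over the whole set, so shares of motifs among the 230 are not given.

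The 230 genes took 1.01% to 1.12% of all counts in the control samples, and 0.40% to 0.42% in B6 AC and 0.298% to 0.308% in SjSS AC samples. With CpG they took 0.322% to 0.335% in B6 and 0.335% to 0.382% in SjSS. Their control means ran from 2.0 to 1570.0 CPM in B6, with a median of 15.3, and from 2.06 to 1373 CPM in SjSS, with a median of 16.1. In B6 the median gene was 2.46-fold lower with AC (range 2.0 to 8.71), and in SjSS it was 3.67-fold lower (range 2.0 to 52.7). For 184 of the 230 genes the fall was deeper in SjSS. That gap was smaller under another scale. Divided by sample totals, the median of all 15789 tested genes lay at -0.40 on the log2 scale in SjSS AC against control, at -0.07 in B6 AC, at -0.21 in B6 CpG and at -0.13 in SjSS CpG. With TMM scaling these medians were -0.02, 0.001, -0.04 and -0.01, and the 230 genes had median falls of 2.36-fold in B6 and 2.86-fold in SjSS, deeper in SjSS for 142. The same rule on TMM-scaled totals kept 155 of the 230 and added none.

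**Figure D1:**
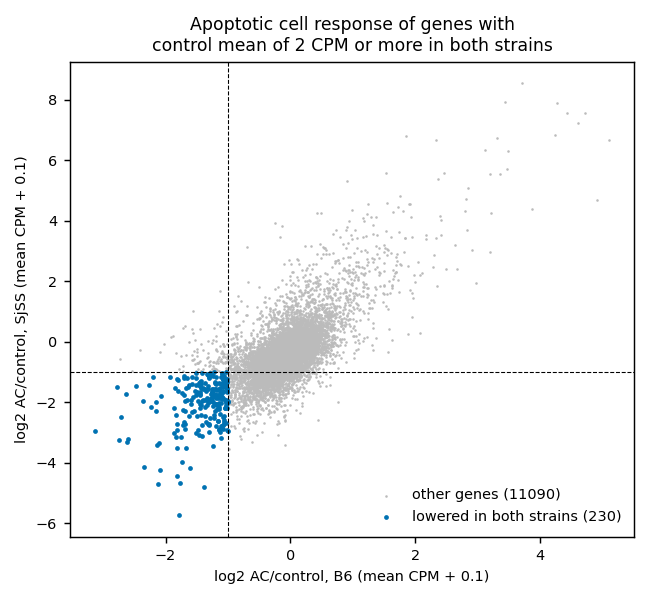
Each point is 1 of 11320 genes, placed by its log2 ratio of AC to control mean CPM (0.1 added) in B6 (x axis) and in SjSS (y axis). The 230 genes in blue lie at or below -1 on both axes (dashed lines), and the others are grey.

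On sample totals, all 3 AC samples lay below all 3 controls for each of the 230 genes in both strains. The choice of the genes all but fixes this. It holds for 35.7% of the 11320 genes in B6 and 68.3% in SjSS. Just inside the limit were Gm15513 with a larger ratio of 0.499, 4833418N02Rik with 0.4995 and Rnase4 with 0.4995. Just outside it were Zfp36l1 with 0.5012, Asb4 with 0.5015 and Lss, the lanosterol synthase gene, with 0.5026. The rule was met in B6 only by 115 genes and in SjSS only by 1549. These 2 counts are given on sample totals only. On that scale the median of all tested genes lay at -0.405 in SjSS AC and -0.068 in B6 AC (log2), so the counts depend on the scale. In bulk RNA, fewer cells of a type and less RNA per cell cannot be told apart.

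The deepest falls with AC over both strains were those of Frat1 (chr19:41829970-41832583, plus strand, mm10) and its neighbour and paralog Frat2 (chr19:41845972-41848132, minus strand), whose proteins bind GSK3 in the Wnt pathway. Frat1 was at 4.51, 4.14 and 4.63 CPM in the B6 controls and at 0.99, 1.76 and 0.912 CPM in B6 AC. It was at 9.79, 6.97 and 11.2 CPM in the SjSS controls and at 0.108, 0.0526 and 0.0748 CPM in SjSS AC. The last 3 values rest on 3 to 5 counts a library. Frat2 went from 6.07, 5.401 and 6.06 to 1.81, 0.927 and 1.07 CPM in B6 and from 10.7, 7.23 and 15.1 to 0.368, 0.456 and 0.149 CPM in SjSS. The promoter windows of the 2 genes share a run of 63 identical bases, from -13 in Frat1 and -17 in Frat2 relative to the start. The run reaches the end of the Frat1 window, and the rest of the transcripts was not compared. Whether reads were split between the 2 genes was not tested, so their separate levels are uncertain.

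Among the other genes with the deepest falls were receptors. Cnr2, the cannabinoid receptor of immune cells (chr4:135895394-135920207, plus strand), was at 33.2, 31.7 and 32.1 CPM in B6 controls and 8.23, 7.92 and 6.55 CPM in B6 AC. In SjSS it was at 57.1, 50.6 and 47.4 CPM in the controls and 3.12, 2.31 and 2.62 CPM with AC, so that SjSS started higher and ended lower. Rtn4rl1, a relative of the Nogo receptor, was at 6.74, 3.298 and 3.44 CPM in the controls and 0.825, 0.734 and 0.844 CPM with AC in B6. The SjSS samples had 8.41, 8.41 and 12.9 CPM in the controls and 0.714, 0.438 and 0.262 CPM with AC. Bmf, a BH3-only protein that promotes apoptosis, was 2.61-fold lower in B6 (8.23, 7.73 and 7.02 CPM after 22.2, 19.1 and 19.03) and 28.01-fold lower in SjSS (1.45, 1.44 and 1.16 CPM after 39.1, 35.1 and 47.2). Engase, a cytosolic enzyme that cuts free glycans, was 3.39-fold lower in B6 and 25.6-fold lower in SjSS. Frat1, Bmf and Engase had the largest excess of the SjSS fall over the B6 fall among the 230 genes. Chp2 and P2ry12 were among the 3 with the largest excess the other way, at 6.87 and 4.62-fold in B6 against 2.81 and 2.23-fold in SjSS. Sox4, a transcription factor, was at 48.8, 37.3 and 36.4 CPM in the controls and 6.99, 6.14 and 6.497 CPM with AC in B6. In SjSS it started lower, at 30.8, 25.1 and 20.9 CPM in the controls and 2.25, 2.63 and 2.598 CPM with AC. Etl4 was 6.69-fold lower in B6 and 9.49-fold lower in SjSS.

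Of a list of 31 chemokine and other chemoattractant receptors, of which 24 had control means of 2 CPM or more in both strains, 7 were among the 230. They are Ccr1 and Ccr2, receptors for inflammatory CC chemokines, Cx3cr1, the fractalkine receptor, Cxcr3, P2ry12, an ADP receptor, Gpr34, a receptor for lysophosphatidylserine, and Gpr183, an oxysterol receptor. Ccr2 (chr9:124101950-124113557, plus strand) was at 11.2, 12.6 and 10.6 CPM in B6 controls and 1.59, 2.397 and 3.51 CPM in B6 AC. In SjSS it was at 23.2, 19.3 and 26.6 CPM in the controls and 4.65, 3.77 and 5.42 CPM with AC, and its SjSS controls were all above the B6 controls. Gpr34 (chrX:13632089-13640858, plus strand) was at 8.21, 3.76 and 3.26 CPM in B6 controls, with the first sample above the other two, and fell to 0.784, 0.425 and 0.274 CPM. In SjSS it went from 6.75, 5.74 and 6.91 to 0.757, 0.894 and 0.598 CPM. Gpr183 was at 8.87, 6.197 and 5.75 CPM in the controls and 2.02, 1.53 and 2.14 CPM with AC in B6. In SjSS its fall was deeper, from overlapping controls, at 8.79, 8.08 and 8.08 CPM in the controls and 0.411, 0.298 and 0.168 CPM with AC. P2ry12 ended higher in SjSS than in B6, at 8.33, 9.59 and 9.59 CPM after 20.1, 20.4 and 21.4, against 3.75, 5.02 and 5.13 CPM after 25.3, 21.6 and 18.4.

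With CpG, all 7 receptors were lower in both strains at an adjusted p under 0.05, as were 29.8% of all tested genes in B6 and 26.4% in SjSS. In B6, 6 of them passed the fold threshold (log2 fold change over 1.3 in size, which is 2.46-fold), as did 6.88% of all tested genes. Gpr34 had the deepest fall of the 7, to 0.152, 0.176 and 0.19 CPM in B6 and 0.182, 0.279 and 0.254 CPM in SjSS, on 7 to 11 counts a library (log2 fold change -4.68, SE 0.399, adjusted p = 6.34e-09 in B6, and -4.62, SE 0.38, adjusted p = 5.85e-09 in SjSS, by the quasi-likelihood test of edgeR, adjusted by Benjamini-Hochberg, as for all adjusted p values here). P2ry12 was at 2.31, 2.46 and 2.64 CPM in B6 CpG and 2.58, 2.97 and 2.15 CPM in SjSS CpG, below its AC samples in both strains. Ccr2 differed by -1.79 in B6 and -2.15 in SjSS on the log2 scale, Gpr183 by -3.04 and -2.51, Ccr1 by -1.52 and -1.08, and Cxcr3 by -2.21 and -1.29. In SjSS, Ccr1, Cxcr3 and Cx3cr1 missed the fold threshold. Cx3cr1 was at 115, 47.8 and 59.8 CPM in B6 controls and 62.4, 23.1 and 26.9 CPM in B6 CpG, where the first CpG sample lay above the second and the third control (log2 fold change -0.79, adjusted p = 0.0455). Within same-numbered samples the log2 ratios of CPM were -0.88, -1.05 and -1.15, and the fit with the replicate block gave -0.83. Leaving out that CpG sample but not its control gave -1.39. The span the table gives Cx3cr1 covers 5 other genes, 3 of them on its strand, so its level is uncertain. Over the whole list, 17 of 27 tested receptors were lower with CpG in B6 and 8 higher at an adjusted p under 0.05, and 16 and 6 in SjSS, where 28.1% of all tested genes were higher in B6 and 27.8% in SjSS.

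**Figure D2:**
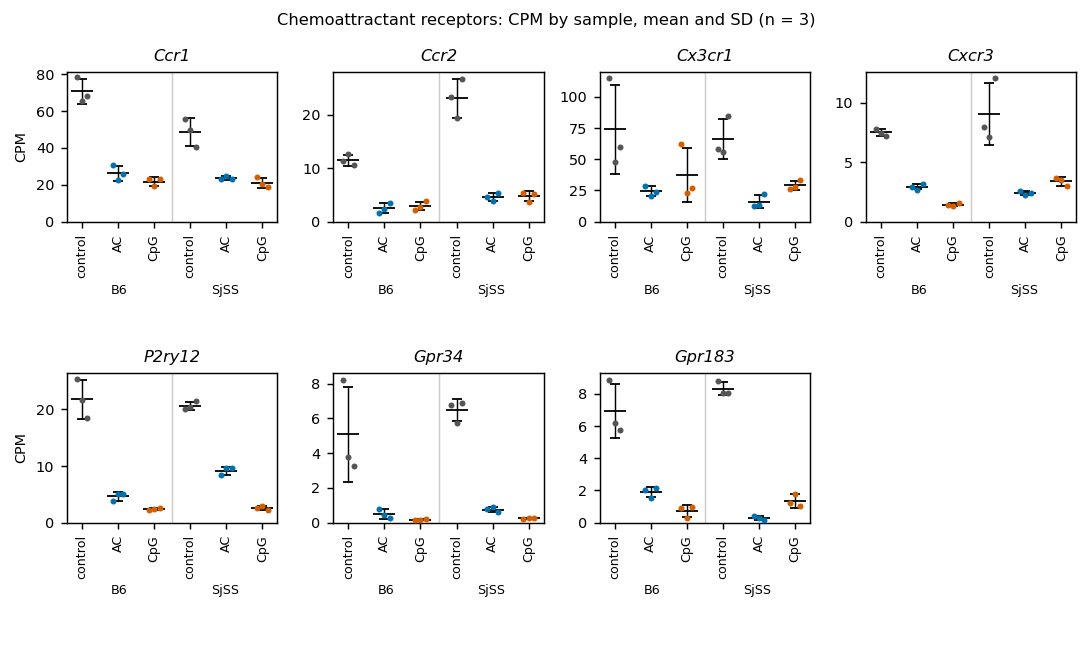
CPM (y axis, from 0) of the 7 chemoattractant receptors in each sample, with control in grey, AC in blue and CpG in orange for B6 (left) and SjSS (right). Dots are samples, and the bars give the mean and SD of 3. All AC samples lie below the controls, and the highest Cx3cr1 values are those of the first B6 control, at 115 CPM, and the third SjSS control, at 84.3.

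Of 29 tested genes for phosphatidylserine recognition and engulfment, 2 were among the 230, and both are abundant. Stab1, which encodes stabilin-1, a scavenger receptor that binds phosphatidylserine (chr14:31139013-31168641, minus strand), had the highest level of the 230 genes. It was at 1647, 1469 and 1593 CPM in the controls and 666, 679 and 640.3 CPM with AC in B6. The SjSS levels were close to these, at 1274, 1367 and 1479 CPM in the controls and 623, 583 and 661 CPM with AC. Itgb5, the integrin subunit that pairs with alpha V in uptake of dying cells (chr16:33829665-33949153, plus strand), was at 660.3, 572 and 608 CPM in B6 controls and 268, 261 and 266 CPM in B6 AC. SjSS samples stood at 846, 857 and 917 CPM in the controls and 246, 276 and 263 CPM with AC. The SjSS controls were all above the B6 controls, while the AC samples of the strains overlapped. With CpG, Itgb5 fell below its AC level, to 119.5, 124 and 129.5 CPM in B6 and 165, 178 and 154 CPM in SjSS (log2 fold change -2.12, SE 0.06, adjusted p = 1.85e-15 and -2.27, SE 0.06, adjusted p = 1.1e-15). Stab1 was at 787, 722 and 714 CPM with CpG in B6 and at 589, 671 and 608 CPM with CpG in SjSS, a fall that had an adjusted p of 7.86e-10 in B6 and 2.07e-10 in SjSS and missed the fold threshold in both (-0.901 and -1.01). Of the 29 listed genes, 18 were lower and 5 higher with CpG in B6 at an adjusted p under 0.05, and 19 and 5 in SjSS, beside 29.8% lower and 28.1% higher over all tested genes in B6 and 26.4% and 27.8% in SjSS.

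The other abundant genes of the 230 included adhesion and GTPase regulators. Itga6, a laminin-binding integrin subunit, was at 280.0, 230.1 and 213 CPM in B6 controls, 95.4, 77.9 and 86.96 CPM with AC and 54.5, 43.6 and 44.1 CPM with CpG. Its SjSS levels were 282, 248 and 264 CPM in the controls, 72.8, 67.6 and 66.6 CPM with AC and 63.3, 68.1 and 58.8 CPM with CpG, where the AC and CpG samples overlapped on this scale and CpG was lower on TMM-scaled totals. Enc1, an actin-binding kelch protein (chr13:97241105-97253039, plus strand), went from 308, 273 and 275 to 69.5, 63.3 and 61.9 CPM with AC in B6 and from 396, 370.4 and 370.4 to 35.6, 32.5 and 39.3 CPM in SjSS. With CpG it went lower still in B6, to 23.3, 17.9 and 22.3 CPM, and to about the AC level in SjSS, at 42.6, 44.1 and 32.1 CPM (log2 fold changes -3.57 and -3.13). Arhgap19, a GTPase activating protein, was at 235 ± 6.502, 107 ± 4.54 and 23.98 ± 2.68 CPM (mean ± SD, n = 3) in control, AC and CpG samples of B6 and at 296 ± 28.6, 37.7 ± 2.12 and 48.6 ± 7.63 CPM in SjSS, with CpG below AC in B6. In SjSS the CpG samples were above the AC samples on sample totals (log2 ratio 0.37) and overlapped them on TMM-scaled totals (0.08). Ptgs1, the constitutive cyclooxygenase of prostaglandin synthesis, was at 214 ± 28.1, 73.9 ± 3.97 and 37.05 ± 2.52 CPM in B6 and at 208 ± 5.49, 68.1 ± 1.84 and 38.1 ± 5.34 CPM in SjSS, with CpG lowest in both. Rassf3, a Ras association domain protein, Rasa3, a Ras GTPase activating protein, and Man2a2, a Golgi mannosidase, were all called lower with CpG in both strains, with log2 fold changes of -2.395, -2.48 and -1.895 in B6 and -1.67, -2.06 and -1.87 in SjSS.

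A few signalling feedback genes met the rule too. Of a list of 27 RGS, dual specificity phosphatase, Spry and Spred genes, 23 had control means of 2 CPM or more in both strains. Of these, 3 had a ratio of 0.5 or less in B6 and 5 in SjSS, and 2, Dusp6 and Dusp7, in both. Dusp1, Dusp2, Dusp4 and Dusp5 had higher means with AC in both strains. Of 17 listed ID protein and SMAD feedback genes, 15 reached the control minimum and 1, Smad7, met the rule. Dusp6, a phosphatase that turns ERK off and is itself a target of ERK, was at 154, 134 and 149 CPM in the controls and 51.8, 42.8 and 40.2 CPM with AC in B6. In SjSS it was at 144, 144 and 102 CPM in the controls and 15.8, 17.5 and 19.2 CPM with AC. Dusp7, another ERK phosphatase, was 2.49-fold lower in B6 AC and 6.53-fold lower in SjSS AC. Etv5, an ETS factor also driven by ERK, was 2.55 and 3.06-fold lower. With CpG the 3 genes parted. Dusp6 was called lower in both strains (-2.06 in B6 and -1.83 in SjSS on the log2 scale), Dusp7 fell but missed the threshold (-1.06 and -1.07), and Etv5 was at 86.7, 91.5 and 91.98 CPM in B6 and 97.2, 93.05 and 105 CPM in SjSS, above its AC samples in both (-0.67, adjusted p = 5.51e-07, and -0.201, adjusted p = 0.0397). Smad7, the inhibitory SMAD of TGF-beta signalling, was at 61.1, 53.98 and 51.1 CPM in the controls, 26.98, 27.1 and 25.6 CPM with AC and 8.92, 8.48 and 10.5 CPM with CpG in B6. In SjSS it was at 40.6, 36.1 and 31.2 CPM in the controls, 12.1, 11.7 and 16.1 CPM with AC and 16.1, 17.2 and 11.8 CPM with CpG. CpG was lowest in B6, and AC and CpG overlapped in SjSS. Il6ra, the receptor subunit for IL-6, was 2.57-fold lower with AC in B6 and 4.42-fold lower in SjSS, with CpG values of -1.501 and -1.22 on the log2 scale. Fzd7, a Wnt receptor, and Mef2c, a factor of the macrophage lineage, were called lower with CpG in both strains, at -1.73 and -1.66 for Fzd7 and -2.41 and -2.02 for Mef2c. So were E2f2, a cell cycle factor (-2.13 and -1.898), and Ypel3 (-2.04 and -1.57). Tnrc6b, a protein of miRNA silencing, differed by -1.19 and -0.78, under the threshold.

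Of a list of 19 clock genes, 15 had control means of 2 CPM or more in both strains and 2 were among the 230. They are Dbp, a transcription factor at the output of the clock, and Per3, a clock repressor. Dbp was at 25.7, 23.5 and 24.4 CPM in B6 controls, 8.699, 9.09 and 7.85 CPM with AC and 1.45, 2.13 and 2.51 CPM with CpG. In SjSS the values were 27.1, 27.5 and 42.1 CPM in the controls, 3.59, 4.19 and 4.03 CPM with AC and 5.33, 7.31 and 5.26 CPM with CpG. The 3 groups did not overlap within a strain, and CpG was lowest in B6 while AC was lowest in SjSS, on TMM-scaled totals too. Per3 was 3.25-fold lower with AC in B6 and 3.37-fold lower in SjSS.

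Of 29 T-lineage markers, 4 had control means of 2 CPM or more in both strains, and of these Cd28 and Satb1 were among the 230. Cd28 was at 81.7, 80.6 and 64.5 CPM in untreated B6 BMDMs and at 21.8, 24.3 and 27.1 CPM after AC. The SjSS samples were at 76.2, 61.1 and 58.2 CPM in the controls and 25.9, 23.3 and 23.5 CPM with AC. It was lowest with CpG, at 5.07, 5.24 and 6.23 CPM in B6 and 8.46, 10.5 and 5.64 CPM in SjSS. Satb1, a chromatin organizer of T cells, was 2.71-fold lower with AC in B6 and 2.43-fold lower in SjSS. The other 27 markers summed to 28.8 to 31.2 CPM per sample in B6 controls, 31.5 to 34.1 in B6 AC, 23.8 to 25.9 in SjSS controls and 25.2 to 28.4 in SjSS AC. Most of that sum was Ets1, a transcription factor that other cells also express, and Cd4. Ets1 had means of 18.1 CPM in B6 controls and 25 CPM in B6 AC, and of 10.7 and 10.6 CPM in SjSS. Cd4 had means of 9.29 and 3.67 CPM in B6 and of 11.4 and 11.7 CPM in SjSS. With CpG the sum was 41.2 to 48.6 CPM, and Ets1 alone was at means of 40.4 CPM in B6 and 34.4 CPM in SjSS. Of the 29, Trac, Rag1 and Dntt had 0 counts in the B6 controls and none was at 0 in B6 AC. Their B6 AC means were low, at 0.0275, 0.167 and 0.126 CPM, and Trac was at 0.12 CPM in B6 CpG. From SjSS controls to SjSS AC, Rag1 went from 0 to 0.0193 CPM, Trac from 0.0544 to 0.0436 CPM and Dntt from 0.0135 to 0.00584 CPM. Themis was at 0 in SjSS AC. The B cell, neutrophil, dendritic cell, fibroblast, erythroid and macrophage marker lists had no member. In that order, only 3, 3, 2, 6, 2 and 14 of their genes reached the control minimum of 2 CPM in both strains. Between control and AC samples of B6, neutrophil markers went from a summed 153 to 169.7 CPM to 88.2 to 96.9 CPM, and B cell markers from 143 to 179.9 CPM to 131 to 147 CPM. In SjSS the neutrophil sum was 239.6 to 291 CPM in controls and 234 to 278 CPM with AC, and the B cell sum was 182 to 195.9 CPM in controls and 137 to 139.4 CPM with AC, with no overlap. The part of such cells in the falls was not tested.

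With CpG, most of the 230 genes were lower as well. In B6, 160 (69.6%) were called lower, against 6.88% of all 15789 tested genes, and in SjSS 144 (62.6%), against 4.45%. The median log2 fold change of the 230 was -1.88 in B6 and -1.63 in SjSS, and that of all tested genes -0.04 and -0.01. In both strains 135 were called lower (3.55% of all tested genes), in B6 alone 25, in SjSS alone 9 and in neither 61. At an adjusted p under 0.05 without a fold threshold, 207 were lower in B6 (29.8% of all tested genes) and 206 in SjSS (26.4%). On sample totals, all 3 CpG samples lay below all controls for 213 genes (92.6%) in B6, against 49.8% of the 11320 genes. In SjSS they did so for 211 (91.7%), against 44.9%. The genes were selected on the same control samples, so these counts are not independent of the choice. The genes that met the rule in SjSS only had median CpG values of -0.56 in B6 and -0.54 in SjSS, and those that met it in B6 only -0.89 and -0.79. The order of CpG and AC depended on the scale. On sample totals the mean with CpG was below the mean with AC for 177 of the 230 genes (77.0%) in B6, where 64.1% of the 11320 genes had this, and for 79 (34.3%) in SjSS, where 25.9% did. On TMM-scaled totals these were 168 (73.0%) in B6, against 51.6%, and 107 (46.5%) in SjSS, against 49.0%.

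The deepest falls with CpG called in both strains were those of Gpr34, Sox4, Cables1, a long intergenic RNA and Rtn4rl1. Sox4 fell to 0.934, 0.677 and 1.33 CPM in B6 and 2.42, 2.71 and 1.29 CPM in SjSS (log2 fold change -5.18, SE 0.23, adjusted p = 5.93e-13, and -3.46, SE 0.21, adjusted p = 6.78e-11). Cables1, which links cyclin-dependent kinases to the Abl kinase, went from 2.1, 2.26 and 2.99 CPM to 0.0381, 0.1 and 0.211 CPM in B6 and from 3.16, 2.93 and 5.34 to 0.0912, 0.177 and 0.116 CPM in SjSS, on 2 to 10 counts a library with CpG. The long intergenic RNA, which the table places at chr13:97559971-97583996, plus strand, was at 12.6, 10.2 and 12.1 CPM in B6 controls, 4.21, 4.0 and 3.28 CPM with AC and 0.343, 0.276 and 0.697 CPM with CpG. SjSS values were 17.2, 14.5 and 18.5 CPM in the controls, 3.07, 3.28 and 3.496 CPM with AC and 0.798, 0.938 and 0.577 CPM with CpG. Rtn4rl1 had log2 fold changes of -3.79 and -4.35. Frat1 and Frat2, with the deepest falls after AC, had CpG log2 fold changes of -3.19 and -3.35 in B6 and of -2.91 and -3.14 in SjSS. For Frat1 the SjSS AC samples were below the SjSS CpG samples (1.07, 1.62 and 0.739 CPM), and in B6 the order was the other way, with CpG at 0.172, 0.452 and 0.676 CPM.

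**Figure D3:**
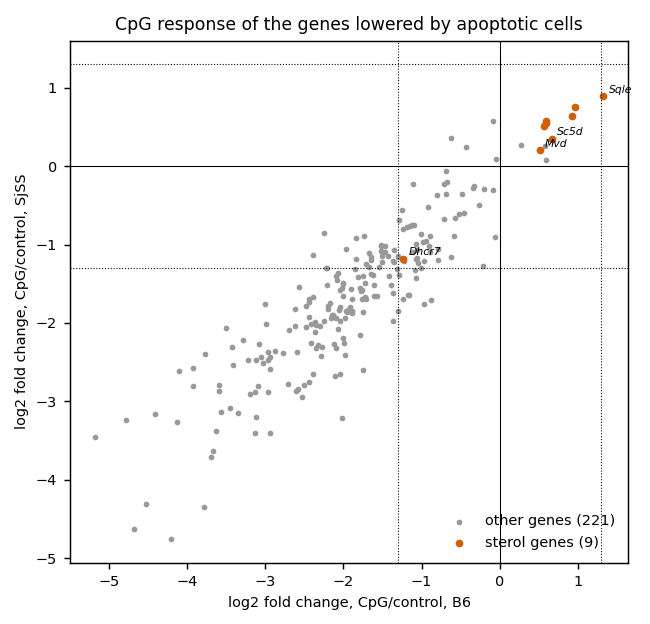
Log2 fold change of CpG against control in B6 (x axis) and SjSS (y axis) for the 230 genes, from edgeR with TMM scaling. Dotted lines mark 1.3 and -1.3. The sterol genes (orange) other than Dhcr7 lie above 0 on both axes, and most of the other 221 genes (grey) lie below 0 on both.

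The exception was the sterol group. Of a list of 26 genes for sterol synthesis and uptake, 25 were tested and 9 were among the 230. In the order of the pathway, those described here are Hmgcs1 (HMG-CoA synthase), Mvd (mevalonate diphosphate decarboxylase), Sqle (squalene epoxidase), Cyp51 and Msmo1 (demethylation of lanosterol and its product), Sc5d and Dhcr7 (a desaturase and a reductase of late steps), and Stard4, a carrier of cholesterol between membranes. Hmgcs1 (chr13:119690462-119708086, plus strand) was at 83.4, 77.4 and 63.6 CPM in B6 controls, 36.03, 34.8 and 33.4 CPM with AC and 102, 97.4 and 98.8 CPM with CpG. The levels in SjSS were 50.7, 55.5 and 49.05 CPM in the controls, 23.6, 20.7 and 24.4 CPM with AC and 69.5, 70.9 and 68.1 CPM with CpG. The 3 groups did not overlap in either strain, with AC lowest and CpG highest. Sqle (chr15:59315077-59331192, plus strand) was at 31.1, 25.8 and 24.3 CPM in the controls, 11.3, 10.6 and 9.305 CPM with AC and 65.7, 58.9 and 54.7 CPM with CpG in B6. SjSS samples had 15.03, 21.5 and 19.3 CPM in the controls, 5.93, 5.99 and 6.73 CPM with AC and 27.8, 32.8 and 33.8 CPM with CpG. It had the same order, and it was the 1 gene of the 230 called higher with CpG, in B6 (log2 fold change 1.32, SE 0.12, adjusted p = 1.1e-08), against 5.86% of all tested genes. Without the first B6 CpG sample it was at 1.24 and without the third B6 control at 1.25, under the threshold. In SjSS the log2 fold change was 0.89 (adjusted p = 3.89e-06), and none of the 230 was called higher there (4.81% of all tested genes).

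Stard4 (chr18:33199355-33213862, minus strand) had the deepest fall of the 9 with AC in SjSS, from 22.97, 28.8 and 24.5 CPM to 4.696, 5.57 and 5.63 CPM, and went from 50.6, 43.1 and 36.1 to 14.2, 12.7 and 12.3 CPM in B6. With CpG it was at 59.8, 56.3 and 56.7 CPM in B6 and 32.7, 33.98 and 37.4 CPM in SjSS. Cyp51 was at 41.2 ± 5.37, 14.4 ± 1.52 and 68.95 ± 8.31 CPM (mean ± SD, n = 3) in control, AC and CpG samples of B6 and at 24.5 ± 3.65, 10.8 ± 1.06 and 34.96 ± 3.35 CPM in SjSS. Msmo1 was at 51.1 ± 5.51, 23.8 ± 0.996 and 66.6 ± 2.76 CPM in B6 and at 34.9 ± 2.94, 17.2 ± 1.602 and 45.7 ± 0.8 CPM in SjSS. Sc5d and Mvd were 2.08 and 2.28-fold lower with AC in B6 and 2.297 and 2.61-fold lower in SjSS. Dhcr7 (chr7:143823145-143848410, plus strand) was the 1 sterol gene of the 9 that was lower with CpG. It was at 25.3, 27.1 and 26.6 CPM in the controls, 12.4, 12.5 and 11.3 CPM with AC and 9.397, 10.2 and 9.93 CPM with CpG in B6. In SjSS it was at 22.0, 21.1 and 24.03 CPM in the controls, 7.66, 9.43 and 8.22 CPM with AC and 7.46, 11.1 and 8.55 CPM with CpG. Its CpG fall had adjusted p values of 8.23e-09 and 2.65e-08 at log2 fold changes of -1.24 and -1.18.

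At an adjusted p under 0.05 alone, 11 of the 230 genes were higher with CpG in B6, where 28.1% of all tested genes were, and 8 of the 11 were sterol genes. Rgs11 and D430040D24Rik were among the others. In SjSS 10 were higher, where 27.8% of all tested genes were, and 7 of the 10 were sterol genes, with Relt and Acsl3, an acyl-CoA synthetase, among the others. Of the 9 sterol genes, Mvd alone was higher in B6 (0.51, adjusted p = 0.000937) without passing in SjSS (0.203, adjusted p = 0.164). Over the 25 tested genes of the list, 20 were higher and 2 lower with CpG in B6, and 14 and 2 in SjSS. The median log2 fold change of the list was 0.59 in B6 and 0.35 in SjSS.

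**Figure D4:**
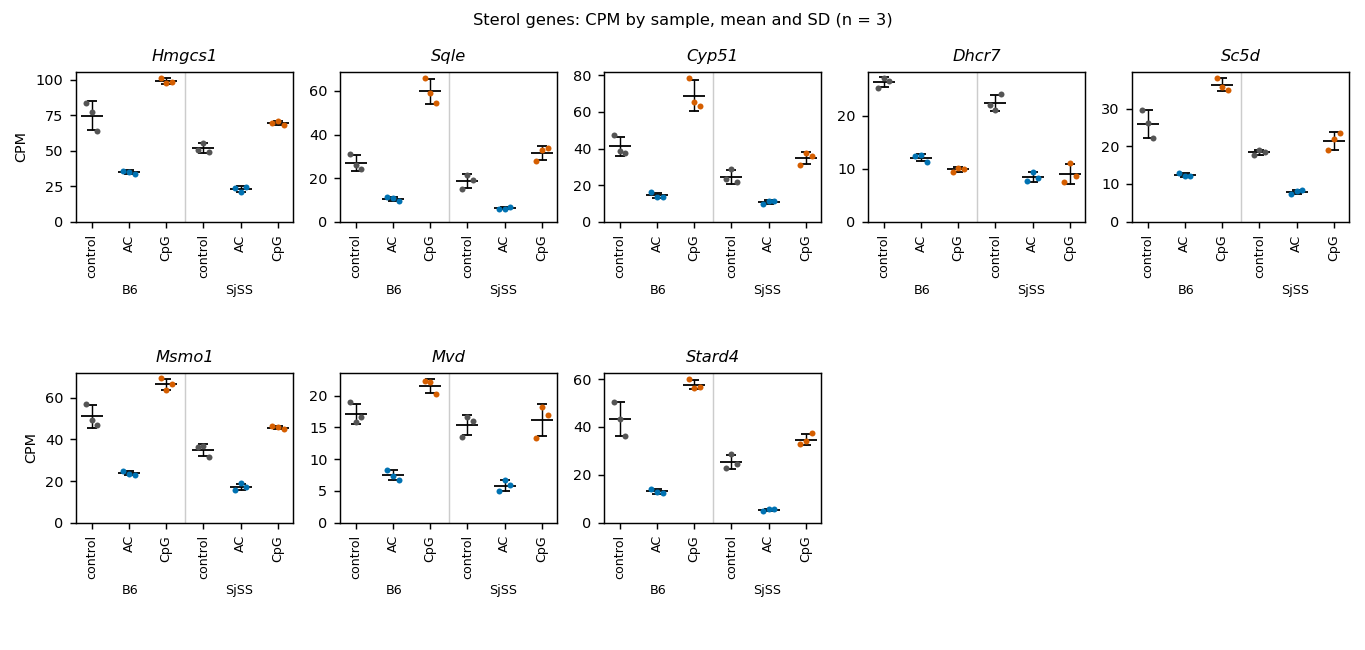
CPM (y axis, from 0) of 8 sterol genes in each sample of B6 (left) and SjSS (right), with control in grey, AC in blue and CpG in orange. Dots are samples, and the bars give the mean and SD of 3. AC is lowest for all but Dhcr7, and Hmgcs1 rises to 97.4 to 102 CPM with CpG in B6.

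The strains were then compared under CpG, in samples that the choice of the genes did not use. Of the 230, 6 were called higher in SjSS (2.61%) and 2 lower (0.87%). Over all tested genes these shares were 1.82% and 0.792%, and over the 11320 genes 0.592% and 0.283%. At an adjusted p under 0.05 alone, 76 (33.0%) were higher, against 10.2% of all tested genes, and 30 were lower, against 9.57%. The median log2 difference was 0.25, and 157 of the 230 genes lay above 0, beside a median of 0.01 over all tested genes. On sample totals, all SjSS CpG samples were above all B6 CpG samples for 104 genes (45.2%), against 31.5% of the 11320 genes. They were below them for 28 (12.2%), against 10%. The calls above use TMM scaling instead. Leaving out samples moved the calls for higher genes from 3 (without the first B6 CpG sample, and without the second SjSS CpG sample) to 12 (without the third B6 CpG sample).

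P2ry1, an ADP receptor (chr3:61002795-61008982, plus strand), had the largest difference, at 7.28, 7.83 and 9.43 CPM in SjSS CpG and 1.22, 1.48 and 1.65 CPM in B6 CpG (log2 difference 2.41, SE 0.19, adjusted p = 4.7e-08). Its controls differed the same way, at 11.9, 11.6 and 14.9 against 3.82, 2.79 and 2.62 CPM, and it lies on chromosome 3, which carries the Aec1 interval in SjSS. Whether the gene lies within the interval was not tested. Fam214a was at 4.61, 4.77 and 3.37 CPM against 1.18, 1.28 and 1.69 CPM (log2 difference 1.52, SE 0.18, adjusted p = 9.52e-06), Dbp was higher by 1.47 (SE 0.19, adjusted p = 2.29e-05) and Ier5l by 1.33 (SE 0.18, adjusted p = 2.94e-05). Rnf150 and Frat1 were the other two, at 1.32 and 1.32, close to the threshold of 1.3. By DESeq2 both lay at 1.3 and were not called. Without the first B6 CpG sample Dbp was at 1.26, Ier5l at 1.19, Rnf150 at 1.14 and Frat1 at 0.91, all under the threshold. Without the second SjSS CpG sample Ier5l was at 1.13, Rnf150 at 1.25 and Frat1 at 1.0. Sh2d1b1, the adaptor EAT-2 of SLAM family receptors on chromosome 1 (chr1:170277320-170286769, plus strand), was lower in SjSS, at 0.958, 0.837 and 1.29 CPM against 4.06, 4.12 and 3.97 CPM (log2 difference -2.06, SE 0.23, adjusted p = 4.54e-06). It was lower in SjSS controls too, at 1.94, 1.76 and 2.59 against 5.48, 5.05 and 3.8 CPM, and in B6 its CpG level did not pass the test against control (adjusted p = 0.829). Slc36a2, an amino acid transporter, was at 1.004, 2.003 and 1.62 CPM against 5.22, 5.68 and 4.33 CPM (log2 difference -1.82, adjusted p = 0.000711).

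The sterol genes were on the lower side. Under CpG, 8 of the 9 were lower in SjSS than in B6 at an adjusted p under 0.05 (9.57% of all tested genes) and none was higher (10.2%), with log2 differences from -1.08 for Cyp51 to -0.51 for Mvd. None passed the fold threshold. Dhcr7 was the other one, at -0.22 (adjusted p = 0.185). Over the 25 tested genes of the list, 20 were lower and 0 higher in SjSS under CpG, with a median of -0.64. In the untreated cells the means of the 9 genes were also lower in SjSS, for example Cyp51 at 24.5 ± 3.65 against 41.2 ± 5.37 CPM, and none of the 9 passed the test of the difference of the CpG responses at an adjusted p under 0.05. Of the 25, 4 had a lower CpG response in SjSS by that test and 0 a higher one, beside 2.62% and 3.23% of all tested genes.

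For the difference of the CpG responses, SjSS minus B6, 5 of the 230 genes were called higher, that is with a shallower fall in SjSS (0.285% of all tested genes), and 0 lower (0.329%). At an adjusted p under 0.05 alone these were 38 (3.23% of all tested genes) and 3 (2.62%), and DESeq2 called 5 and 0 at the fold threshold. Without the first B6 CpG sample 2 were called higher, without the second SjSS CpG sample 3, and without the third CpG sample of either strain 8. The 5 were Sox4, Rnf150, Eps8, Ier5l and N4bp3. Rnf150, a RING finger protein (chr8:82863356-83091268, plus strand), was at 221, 236 and 219 CPM in B6 controls and 5.32, 6.87 and 9.55 CPM with CpG, and at 198, 203 and 194 CPM and 20.4, 21.2 and 16.2 CPM in SjSS. Its fall was -4.79 in B6 and -3.24 in SjSS on the log2 scale, so both strains fell and B6 fell further. A noncoding gene on the other strand, RP23-72K19.2, overlaps Rnf150 and is itself among the 230, another gene on the same strand, RP23-478B10.1, overlaps it too, and strand use in counting was not given in the sources used here. Ier5l was at 19.6, 16.4 and 21.5 CPM in the controls, 4.79, 5.74 and 5.47 CPM with AC and 1.201, 1.505 and 1.77 CPM with CpG in B6. The SjSS samples had 18.03, 20.1 and 16.98 CPM in the controls, 3.18, 3.28 and 3.72 CPM with AC and 3.17, 5.15 and 3.74 CPM with CpG. Eps8, an actin-capping protein, went from 19.7, 19.5 and 21.3 to 0.4, 1.41 and 1.37 CPM in B6, where the first CpG sample was below the others, and from 16.04, 17.8 and 14.5 to 2.85, 2.66 and 1.73 CPM in SjSS.

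**Figure D5:**
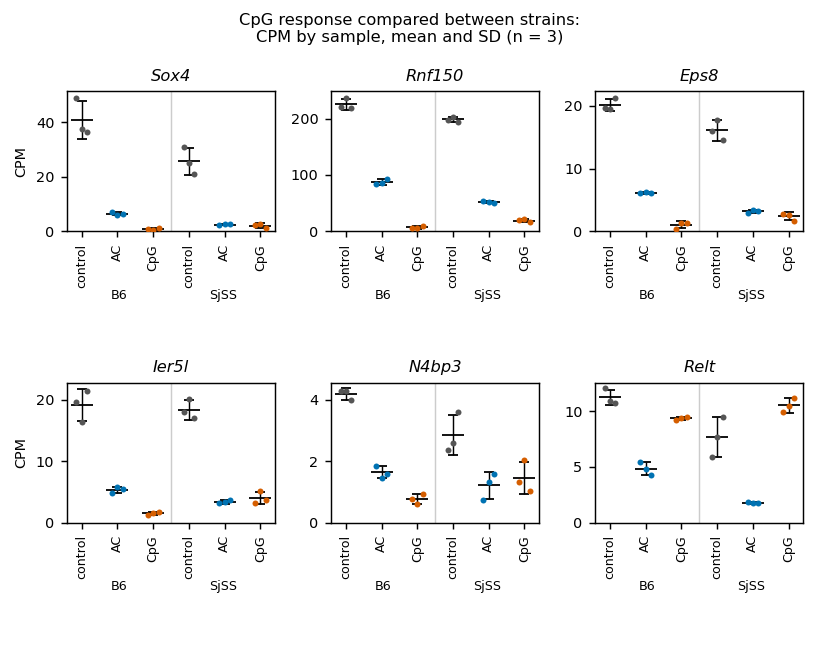
CPM (y axis, from 0) in each sample of B6 (left) and SjSS (right) for the 5 genes whose CpG responses differed between strains and for Relt. Dots are samples, control in grey, AC in blue and CpG in orange, and the bars give the mean and SD of 3. Rnf150 ends at 5.32 to 9.55 CPM with CpG in B6 and at 16.2 to 21.2 CPM in SjSS.

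Features that the choice did not use were compared with the 11320 genes as a description. Of the 230 genes, 207 were protein coding (92.2% of the 11320 were) and 8 were long intergenic RNAs (3.48%, against 0.786%). In GENCODE M21, 204 of the 207 protein-coding genes had a transcript by name and chromosome. The median gene spanned 31300 bases (23660 over the 11320 genes), its longest transcript had 8.5 exons (8) and 4054 bases (3464), and its GC content was 50.5% (49.5%). On chromosome 1 lay 19 of the 230 genes (8.26%, against 5.88%) and on chromosome 3 lay 10 (4.35%, against 4.77%). Within 100 kb of another of the 230 lay 29 genes, in 19 pairs, some of which are overlapping spans. The same was not computed over the 11320 genes, here or for the shared spans below. The densest stretch was on chromosome 19, with Slit1, Arhgap19, Frat1 and Frat2. A span shared with another gene of the table was found for 90 of the 230, for 28 of them on the same strand, among them Acsl3 with Utp14b and Zfyve28 with Gm15513, both pairs within the 230, so that those levels are uncertain.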

How the data were processed

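BMDMs of 2 strains were profiled by RNA-seq in 18 samples, 3 in each of 6 groups taken from the sample labels. The values are estimated counts per gene for 20615 genes, which the authors made by aligning reads to mm10 with STAR and assigning them with the E/M method of Partek, and deposited without normalization. Of these values 29.2% were not whole (tolerance 1e-06). Library strandedness was not given in the sources used here. Totals per sample were 30688336 to 57139662, with a median of 47912525. Low counts limit the precision of low genes. All comparisons used 3 samples a group, and no counting interval is given, also for the AC ratios, which carry no test.

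For the choice of genes, values were divided by the sample total and scaled to 1000000 (CPM), averaged by group, and 0.1 CPM was added for the ratio. The control minimum of 2 CPM was read before that addition. The members, the gene lists and the tests were chosen with earlier results of these data known.

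For tests, values were rounded to integers and fitted with edgeR 4.0.16 (R 4.3.3, limma 3.58.1), with TMM scaling, the filterByExpr filter, 1 mean per group over all 18 samples, the quasi-likelihood test and Benjamini-Hochberg adjustment over 15789 genes. Calls needed both an adjusted p below 0.05 and an absolute log2 fold change above 1.3. The fits were tested on simulated data. Tables and plots were made with matplotlib 3.10.9, pandas 2.3.3 and numpy 2.4.6 under Python 3.11.15. The alternatives were DESeq2 1.42.0, its size factors in edgeR, other filters, fits of the compared groups only, other fold limits, other rule limits, leaving out each sample, and the replicate number as a block. Cells of each mouse were cultured separately. Whether same-numbered samples share a mouse was not given in the sources used here. Deviations of same-numbered control and CpG samples correlated at 0.137 to 0.264 in B6, so that the numbers were taken to pair them there, and at 0.059 to 0.142 in SjSS, where they were not. Differently numbered ones correlated at -0.252 to 0.007 in B6 and at -0.12 to -0.006 in SjSS. Deviations from a group mean sum to 0, so these values are not separate evidence of pairing. For B6 control and AC samples, same numbers correlated at 0.02 to 0.193 and different ones at up to 0.074. SjSS numbers may pair samples too. The main tests were unpaired in both strains. For the strains under CpG, the block joined equal numbers across strains, which are different mice.

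The genes named were the 10 with the lowest geometric mean of the 2 AC ratios, the 10 with the highest control mean, the 5 with the deepest fall with CpG among those called in both strains (none was called higher in both), the 5 largest increases and 5 largest decreases called between strains under CpG, the 3 with the largest strain difference of the AC ratio each way, the 3 on each side of the ratio limit, and every member of the 24 gene lists. Other genes, namely Frat1 as a strain difference, Eps8, N4bp3, Relt, Rgs11, D430040D24Rik, Acsl3, Slit1, Utp14b, Zfyve28, Ets1 and Cd4, were named after their values were seen. The time in culture after the wash is 3 h by the labels and 4 h by the methods. Some genes that these rules select are counted but not reported here by name.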

Additional observations from a re-analysis of the deposited data

Results flagged for a closer look

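For 5 of the 230 genes the log2 response to CpG was higher in SjSS than in B6 by the interaction term of edgeR, at an adjusted p under 0.05 and a difference over 1.3. The difference was 1.721 for Sox4 (adjusted p = 0.00321), 1.547 for Rnf150 (adjusted p = 4.36e-05), 1.495 for Eps8 (adjusted p = 0.0115), 1.44 for Ier5l (adjusted p = 0.000885) and 1.4 for N4bp3 (adjusted p = 0.0318). All 5 had negative log2 fold changes in both strains, with N4bp3 at -2.25 in B6 and -0.85 in SjSS. Relt, a receptor of the TNF receptor family, had a difference of 0.668 (adjusted p = 0.0276), under the fold threshold. Its B6 CpG samples lay below all B6 controls and its SjSS CpG samples above all SjSS controls. The B6 log2 fold change was -0.085 and the SjSS one 0.583, and the B6 mean was nearly level on the TMM scale.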

How the results depend on the processing

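The number of genes that met the rule was 92 at a ratio limit of 0.4 and 498 at 0.6, 159 with 1 CPM added, 155 on TMM-scaled totals, 233 with the control minimum read after the 0.1 CPM (chosen after seeing the data), and 216 to 251 when a sample was left out. Calls lower with CpG were 157 to 162 in B6 and 139 to 152 in SjSS without single samples. Calls higher with CpG in B6 were 0 to 1 without single samples (0 without the first B6 CpG sample or the third B6 control) and 11 without a fold threshold, and 10 without it in SjSS. For SjSS against B6 under CpG, calls lower were 30 without a fold threshold and 8 at a log2 fold change of 1 or more, and calls higher were 76 and 16, and 3 to 12 without single samples. For the difference of the CpG responses, calls lower were 3 and 1, and 0 to 1 without single samples. Calls higher were 38 and 11, and 2 to 8 without single samples (2 without the first B6 CpG sample). Genes with a CpG mean below the AC mean went from 177 to 168 in B6 and from 79 to 107 in SjSS on TMM-scaled totals, a scale chosen for this count after seeing the data.

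With the replicate number as a block, calls lower with CpG were 161 in B6 and 144 in SjSS, and the median log2 fold changes were -1.877 and -1.623. The block moved no count of calls by over 1.5 times.

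Uncalled strain differences under CpG crossed 0 when single samples were left out, from -0.41 to 0.796 for Cables1, -0.853 to 0.389 for Chp2, -0.711 to 0.134 for Cx3cr1, -0.098 to 0.139 for Dusp6, -0.079 to 0.041 for Dusp7, -0.019 to 0.081 for Etv5, -0.148 to 0.069 for P2ry12 and -0.143 to 0.045 for Ptgs1. Dusp6 was at -0.004 by DESeq2 and with its size factors in edgeR. Sh2d1b1 with CpG in B6 ran from -0.203 to 0.043. The cause was not tested. Depth limits Frat1, Cables1 and Gpr34, which had 11 counts or fewer per library in at least 1 group.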
